A study of Mus musculus with 2 samples.

Results

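The cytosolic ribosomal proteins are the protein coding genes named Rpl or Rps followed by a number or by the letters of the stalk and laminin receptor proteins, with S6 kinases left out. The name alone chose them, and 80 of the 55414 genes in the deposited table met the rule, 49 of the large (60S) and 31 of the small (40S) subunit. They were compared between an IL10RB-transfected and a mock-transfected culture of NHOS, a mouse osteosarcoma line, by RNA sequencing with 1 library per group. Both cultures grew in medium with 10% fetal serum and 1 mg/ml of the selection drug G418, and whether the transfectant was 1 clone or a pool is not given in the sources used here. IL10RB is the receptor chain shared by interleukin-10 and related cytokines, and the species of the construct is likewise not given. With 1 library per group there was no replicate spread to test against, and every difference below is one between single libraries, without a replicate check.

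A ribosome is built from ribosomal RNA and about one copy of each ribosomal protein, so cells keep the proteins of both subunits in balance and degrade those made in excess. Their mRNAs are among the most abundant in growing cells and begin with a terminal oligopyrimidine (TOP) tract, through which the mTOR pathway controls their translation. A few of the genes have paralogs that are used in particular tissues or conditions, and nearly all have processed pseudogenes, intronless copies scattered over the genome, that can share reads with the gene.

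The estimated counts summed to 23898112 in the transfectant library and 18766040 in the mock library. Il10rb had 1641 counts in the transfectant and 484 in mock, a ratio of CPM, counts scaled to library size, of 2.57 (2.32 to 2.85). Whether reads of the construct are counted there is not known. Brackets hold exact 95% intervals, for which counting was the only error considered. The osteoblast markers Runx2, Sp7, Alpl, Col1a1, Bglap, Ibsp and Spp1 all passed the floor of 50 counts in a library, with Bglap, Ibsp and Spp1 at least 2-fold higher in the transfectant. Runx2 and Col1a1 were higher within 2-fold, and Alpl, with a ratio of 0.707 (0.697 to 0.717), and Sp7, with 0.907 (0.867 to 0.9503), were lower. None of 5 leukocyte, 4 epithelial and 4 endothelial markers passed it. The largest count among these was 27, for Ptprc in mock, with 0 in the transfectant. The part of these differences in the ribosomal protein values was not tested.

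Ribosomal protein transcripts were lower in the transfectant as a group, by a moderate amount and in both subunits. Together the 80 genes took 2.31% of all counts in the transfectant library and 3.24% in the mock library. Their summed level was 22749 CPM in the transfectant and 32925 CPM in mock, 1.45-fold lower (1.44 to 1.45). In these bulk libraries fewer cells with the transcripts and less RNA per cell cannot be told apart. On the deposited TPM scale, which also divides by gene length, they made up 6.47% of transcripts in the transfectant and 9.26% in mock. Of the 77 genes past the floor, 67 had a ratio below 1 and 10 a ratio above 1. The median log2 fold, computed from CPM plus 0.5 as transfectant over mock, was -0.48, against 0.07 over all 11952 genes past the floor and -0.05 over 2307 other abundant coding genes, those whose mean reached 100 CPM. Of the ribosomal protein genes 68 reached that mean, and it was not required of them. The counting interval lay below a ratio of 1 for 64 genes and above it for 7. Over all genes past the floor it lay below for 40.4% and above for 45.7%, over protein coding ones below for 40.2% and above for 46.6%, and over the other abundant coding genes below for 49.7% and above for 44.6%. The ratio itself was below 1 for 46.9% of all genes past the floor and for 52.4% of the other abundant coding genes.

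Few single genes passed 2-fold. The 3 that did were Rpl34 and Rps18 in the lower and Rpl21 in the higher direction, beside 11.9% of all genes past the floor called lower and 19.7% called higher. Among protein coding genes past the floor these shares were 11.8% lower and 19.9% higher. Among the other abundant coding genes 13.6% were called lower and 10.4% higher. Scaling by the upper quartile, which shifts the median of all genes by -0.12, gave 5 lower and 0 higher. With that scaling 363 of the 2307 other abundant coding genes were called lower and 187 higher. Centred on the median of other coding genes of its chromosome, Rpl34 had a log2 fold of -0.86 and was not past 2-fold, whereas Rps18 had -1.24. Rpl21, at 1.04, had 0.92 with the upper quartile, 0.78 centred by gene length and 0.72 centred by chromosome, and so was not past 2-fold in these settings. The log2 folds of the 77 genes had an SD among genes of 0.36, against 0.93 among the other abundant coding genes. The 77 genes were not filtered by level. The order of TPM levels was much alike in both libraries, with a Spearman rho of 0.95 across the 77 genes, which share gene length and annotation in the 2 libraries and are not replicates.

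**Figure D1:**
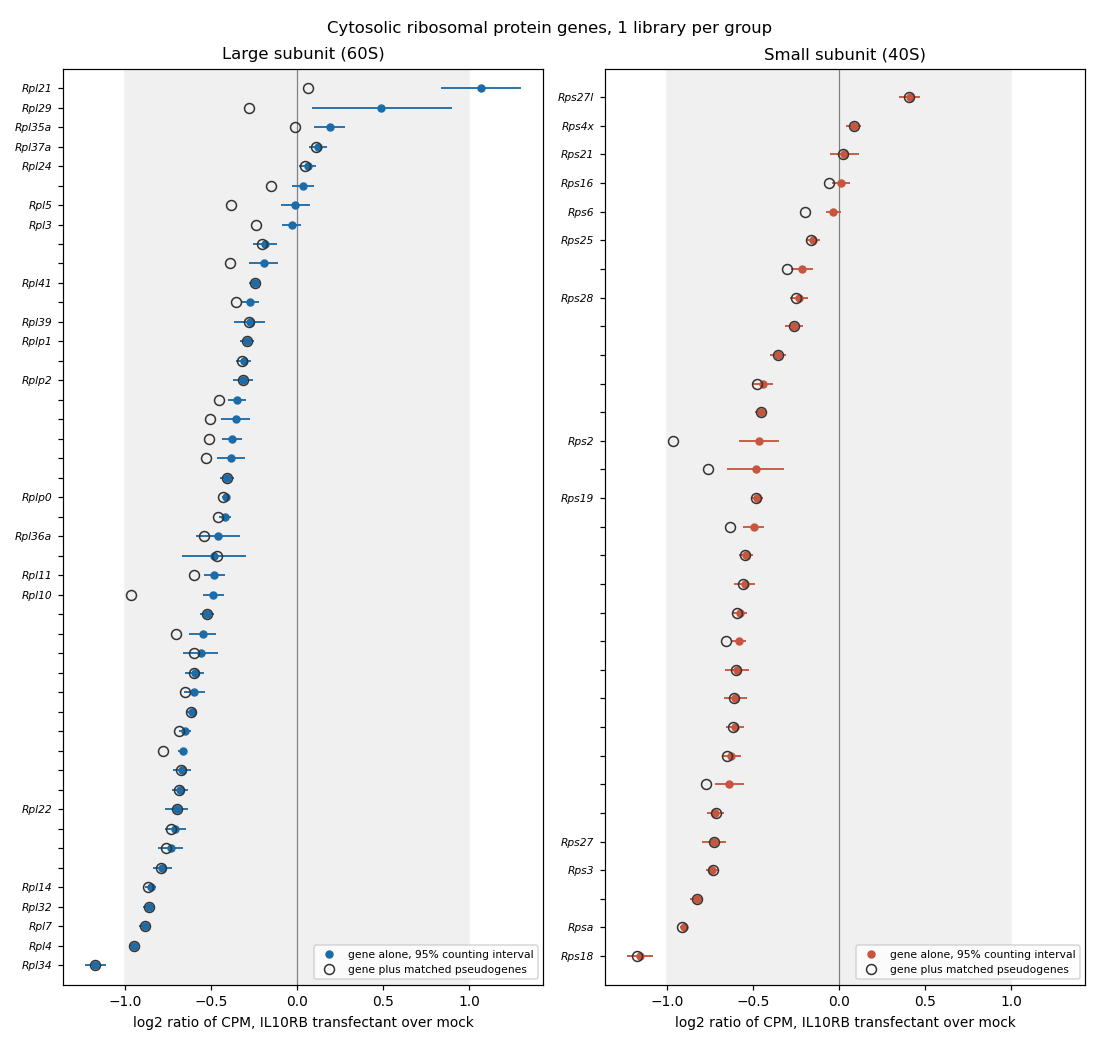
Log2 ratio of CPM, IL10RB transfectant over mock, for the 77 cytosolic ribosomal protein genes past the floor, 46 of the large and 31 of the small subunit, sorted within each panel, with names on the genes described in the text. Filled points are the gene alone with its exact 95% counting interval, open circles are the gene summed with the pseudogenes matched to it, and the grey band spans less than a 2-fold difference. Most points lie left of 0, Rpl34 and Rps18 lie lowest, and the open circle of Rpl21 lies near 0 although the gene alone lies above 1.

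The subunits differed little from each other. The 46 large subunit genes past the floor had a median log2 fold of -0.44, with 40 below a ratio of 1 and 6 above. The 31 small subunit genes had a median of -0.50, with 27 below and 4 above. Summed over genes, large subunit transcripts were 1.46-fold lower (1.46 to 1.47) and small subunit transcripts 1.42-fold lower (1.42 to 1.43). The difference of the medians, large minus small, was 0.06 and changed sign when folds were centred by chromosome, so the data give no stable order of the subunits. Median TPM was 541 in the transfectant and 751 in mock for the large subunit genes, and 830 in the transfectant and 1043 in mock for the small subunit genes.

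Rpl34, a protein at the surface of the large subunit, had the lowest log2 fold of all for genes alone without centring by chromosome, at -1.17. Rps18 was close, at -1.15. Centred by chromosome, Rps18 was lower than Rpl34. Summed with pseudogenes named after the gene, Rps18 was also lower, at -1.173 against -1.169. Rpl34 had 3406 counts and 688 TPM in the transfectant, against 5830 counts and 1649 TPM in mock. In CPM it was 2.26-fold lower (2.16 to 2.35). The gene (ENSMUSG00000062006.13) lies on the minus strand of chromosome 3 from 130520480 to 130524047. Positions here are those of the deposited table, for which the sources used here name no build. Rps18, a protein of the 40S head near the contact with the large subunit, was the lowest of its subunit. It had 2270 counts and 367 TPM in the transfectant, against 3846 counts and 857 TPM in mock, 2.23-fold lower in CPM (2.12 to 2.35). Its place is chromosome 17, 34170973 to 34174975, minus strand, where it overlaps Vps52 on the other strand, with 749 counts in the transfectant and 403 in mock. Rps27l was the small subunit gene at the other end. Its place is chromosome 9, 66853368 to 66856798, plus strand, and its values are given with its paralog Rps27 further on.

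Promoter sequences of these 4 genes show the start region of the 2 lowest genes and of the paralogs with opposite directions. They are from RefSeq on GRCm38.p6, 120 bases each, with 100 bases before the annotated start and 20 from it on, and the coordinates are of that build and not of the deposited table. Capitals mark CCGGAAG on either strand, a core of the sites of ETS factors such as GABP, and CTTTCC on the sense strand, which is the kind of pyrimidine run found at TOP starts.
Rpl34, chr3:130730318-130730437, minus strand: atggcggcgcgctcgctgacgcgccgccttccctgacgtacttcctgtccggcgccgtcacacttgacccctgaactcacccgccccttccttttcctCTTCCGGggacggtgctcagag
Rps18, chr17:33955646-33955765, minus strand: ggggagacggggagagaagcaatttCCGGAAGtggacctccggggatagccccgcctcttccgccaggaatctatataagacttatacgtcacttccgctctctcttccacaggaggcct
Rps27, chr3:90213629-90213748, minus strand: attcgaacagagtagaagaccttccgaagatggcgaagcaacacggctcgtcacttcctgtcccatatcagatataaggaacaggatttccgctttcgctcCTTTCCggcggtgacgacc
Rps27l, chr9:66945986-66946105, plus strand: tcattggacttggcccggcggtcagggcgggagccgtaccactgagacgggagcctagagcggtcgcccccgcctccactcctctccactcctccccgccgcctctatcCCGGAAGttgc
Rpl34 and Rps27l each have an annotated second start, not printed, and Rpl34 is shown from the more 3' and Rps27l from the more 5' of its starts. The same 120 bases around the other start of each gene hold neither motif. In windows of 250 bases before to 50 after the start, 60 of the 80 genes were in the table. CCGGAAG stood on either strand in 25 of them (41.7%), against 9.93% of 27025 genes with a window. CTTTCC stood on the sense strand in 25 (41.7%) against 16.0%, and the 2 motifs can overlap in the letters CC. The median log2 fold was -0.39 in the 24 genes past the floor with CCGGAAG and -0.49 in the 33 without it. It was -0.48 in the 24 genes with CTTTCC and -0.38 in the 33 without. YY1's core AAGATGG, sought on both strands, was in 9 of the 60 genes (15.0%) against 7.28%, and TATAAA on the sense strand in 5 (8.33%) against 9.77%. These matches are descriptions of letters and not of factor binding.

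The abundant genes of each subunit described here were lower without reaching 2-fold. Rpl32 stood at 2226 TPM in the transfectant and 4152 TPM in mock, 1.82-fold lower in CPM (1.77 to 1.86). Rpl41, the shortest ribosomal protein, was closer in level between the libraries, at 2465 TPM in the transfectant and 3128 TPM in mock, 1.19-fold lower in CPM (1.16 to 1.21). Both were lower in the transfectant, Rpl32 by more than Rpl41. In the small subunit Rps28 led, at 2253 TPM in the transfectant and 2767 TPM in mock, 1.18-fold lower in CPM (1.14 to 1.22). Behind it Rps25 was at 2033 TPM in the transfectant and 2356 TPM in mock, 1.11-fold lower in CPM (1.08 to 1.14). Rpsa, also known as the 67-kDa laminin receptor, had the most counts of the 80 genes, 31811 in the transfectant against 45158 in mock, and was 1.87-fold lower in CPM (1.84 to 1.90).

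Behind Rpl34, the lowest large subunit genes were Rpl4, Rpl7, Rpl32 and Rpl14. Rpl4, whose loop lines the exit tunnel, was at 1136 TPM in the transfectant and 2158 TPM in mock, 1.93-fold lower in CPM (1.90 to 1.96) and the nearest gene below the 2-fold line. Rpl7 was at 771 TPM in the transfectant and 1383 TPM in mock, 1.85-fold lower in CPM (1.81 to 1.89). Rpl14 was at 843 TPM in the transfectant and 1571 TPM in mock, 1.80-fold lower in CPM (1.76 to 1.85). In the small subunit Rpsa, Rps3 and Rps27 were, after Rps18, among the 5 lowest. Rps3, at the mRNA entry and also known for a role in DNA repair, stood at 293 TPM in the transfectant and 496 TPM in mock, 1.67-fold lower in CPM (1.62 to 1.71). Nearly all counts of Rpl4, Rpl7, Rpl32 and Rps3 were at the gene itself, with at least 98.2% of the counts of gene plus matched pseudogenes.

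**Figure D2:**
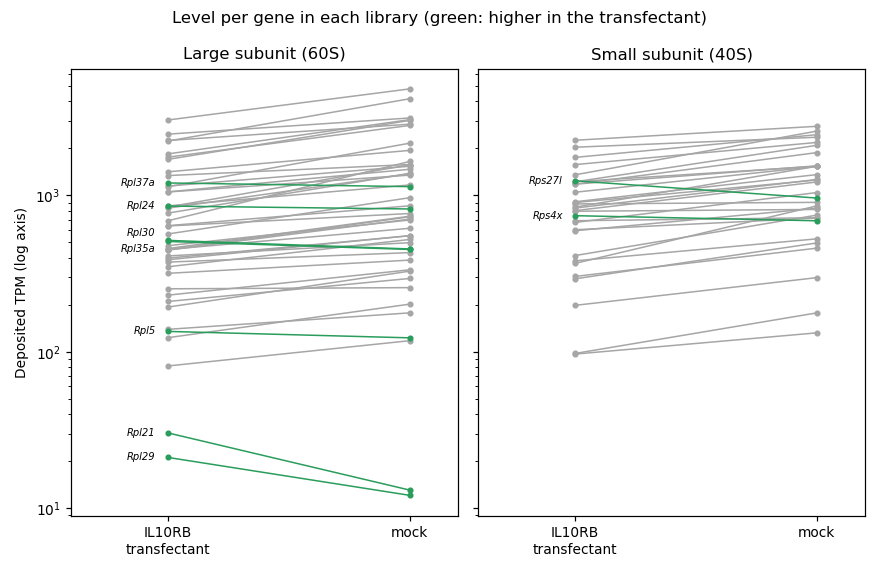
Deposited TPM of each gene past the floor in the IL10RB transfectant and mock libraries, with 1 line per gene and a log axis, by subunit. Green lines are genes with a higher TPM in the transfectant, 7 of them in the large and 2 in the small subunit, and all other lines run lower in the transfectant. Rpl21 and Rpl29 sit far below the other genes.

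Structural groups followed the same direction. These groups are subsets of the 77 genes, of which 67 (87.0%) had a ratio below 1. Their counts of ratios below 1 are to be read beside that share and are not separate results. Over all genes past the floor the share was 46.9%. The stalk recruits translation GTPases, and its 3 genes were all lower and within 2-fold. Rplp0 was at 1148 TPM in the transfectant and 1537 TPM in mock, a CPM ratio of 0.751 (0.738 to 0.764). Rplp1 was at 2245 TPM in the transfectant and 2855 TPM in mock, a CPM ratio of 0.818 (0.795 to 0.840). Rplp2 was at 1052 TPM in the transfectant and 1348 TPM in mock, a CPM ratio of 0.804 (0.773 to 0.836). Rplp1 and Rplp2, which form the dimers of the stalk, were thus close to each other. Of 9 genes at the peptide exit tunnel all had ratios below 1, with a median log2 fold of -0.55. Of 14 genes of the 40S head 13 had ratios below 1 (median -0.56), and of 16 of the body and platform 14 (median -0.48). Genes for proteins with counterparts in all domains of life had a median of -0.52 (32 of 33 below 1), and the 44 others past the floor a median of -0.40 (35 below 1). Of 20 genes mutated in Diamond-Blackfan anaemia, an inherited failure of red cell production, 19 had ratios below 1 (median -0.51). The first of them found, Rps19, was at 1574 TPM in the transfectant and 2182 TPM in mock, 1.39-fold lower in CPM (1.36 to 1.43). Rpl5 and Rpl11 bind 5S ribosomal RNA and can hold the p53 regulator MDM2. Rpl11 was at 397 TPM in the transfectant and 552 TPM in mock, a CPM ratio of 0.717 (0.687 to 0.748). With its matched pseudogenes the ratio of Rpl11 was 0.660 (0.638 to 0.684). Rpl5 was at 135 TPM in the transfectant and 123 TPM in mock, a CPM ratio of 0.993 (0.937 to 1.05), but with its matched pseudogenes the ratio was 0.765 (0.746 to 0.785).

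Pseudogenes held a large share of the family's reads. A sequence match of pseudogene transcripts to coding transcripts gave 1141 pseudogenes to 76 of the 80 genes, and 707 of them had a count. They held 190129 counts in the transfectant and 239123 in mock, 1.66-fold lower in CPM (1.65 to 1.67). Counts were fractional for 76 of the 80 genes, or 98.7% of those past the floor. Over all genes past the floor the share was 33.6%, and over the other abundant coding genes 36.9%. Fractional counts are estimates, and no source used here says how reads were divided between near-identical copies. The deposited table types some of these copies, Rpl10-ps3 and Rps18-ps6 among them, as protein coding. Rps2, which lies at the mRNA entry of the 40S subunit, had 1152 counts in the transfectant and 1208 in mock, whereas Rps2-ps10 had 31424 in the transfectant and 47153 in mock. The gene itself held 3.29% of its family's counts in the transfectant and 2.32% in mock. Its ratio was 0.724 (0.667 to 0.785) alone and 0.511 (0.504 to 0.518) with its pseudogenes. Rpl10, an X-linked gene whose protein sits near the peptidyl transferase site, behaved likewise. It had a ratio of 0.714 (0.685 to 0.744) alone and 0.511 (0.499 to 0.523) with its copies, led by Rpl10-ps3 at 7059 counts in the transfectant and 12031 in mock. For 14 genes under 50% of the family's counts were at the gene itself, and those 14 values are uncertain.

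Of the 3 genes past 2-fold, Rpl34 and Rps18 were as low with their pseudogenes, and Rpl21 was not as high. Rpl34 had 97.99% of its family's counts at the gene in the transfectant and 97.8% in mock, and the family was 2.26-fold lower. Rps18 held 14.1% in the transfectant and 14.0% in mock, and the family was 2.25-fold lower, with Rps18-ps6 at 8003 counts in the transfectant and 13786 in mock. Rpl21 had only 580 counts and 30.3 TPM in the transfectant, against 210 counts and 13.0 TPM in mock, a CPM ratio of 2.10 (1.79 to 2.47). It held 7.89% of its family's counts in the transfectant and 3.94% in mock, and the family ratio was 1.05 (1.01 to 1.08). Rpl29 was similar, at 148 counts in the transfectant and 80 in mock, with a ratio of 1.40 (1.06 to 1.87) alone and 0.824 (0.786 to 0.864) for the family. Over families as a whole, 71 of 77 had a ratio below 1, 2-fold was passed by 2 in the lower and 0 in the higher direction, and their median log2 fold was -0.54. Among the 46 genes with at least 80% of the family's counts at the gene itself, the median was -0.56, with 41 below a ratio of 1. Families here hold matched pseudogenes only, and copies typed protein coding without a pseudogene name were not matched. Rps27 stood among the 46 with 100% at the gene, because its retrocopy Rps27rt was left out. Rps27rt had 1022 counts in the transfectant and 1780 in mock. Members plus pseudogenes took 3.11% of all counts in the transfectant and 4.51% in mock.

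**Figure D3:**
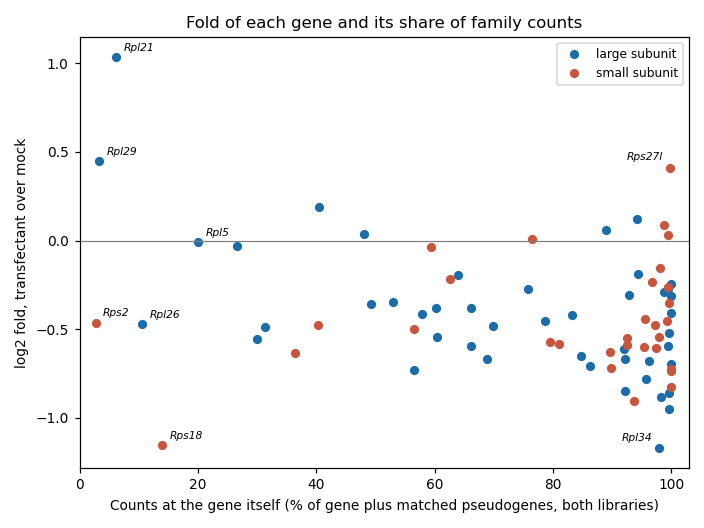
Log2 fold of each gene past the floor, IL10RB transfectant over mock, against the percent of the counts of gene plus matched pseudogenes that lie at the gene itself, both libraries together. Blue points are large and red points small subunit genes. Rpl21 and Rpl29 lie above 0 with under 10% of the counts at the gene, whereas Rps27l lies above 0 with nearly all counts at the gene.

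Genes that did not share the lower level were few. Of the 46 genes with at least 80% of the family's counts at the gene, 5 had a ratio above 1. Their log2 folds were 0.41 for Rps27l, 0.12 for Rpl37a, 0.08 for Rps4x, 0.06 for Rpl24 and 0.03 for Rps21. In the large subunit Rpl37a was at 1202 TPM in the transfectant and 1138 TPM in mock, a CPM ratio of 1.09 (1.05 to 1.13). Rpl24 was at 855 TPM in the transfectant and 819 TPM in mock, a CPM ratio of 1.04 (1.01 to 1.08). Rpl35a was at 508 TPM in the transfectant and 451 TPM in mock, a CPM ratio of 1.14 (1.07 to 1.22) that was 0.992 (0.954 to 1.03) with pseudogenes. In the small subunit the X-linked Rps4x was at 742 TPM in the transfectant and 688 TPM in mock, a CPM ratio of 1.06 (1.03 to 1.09). All 4 stood within a narrow range above a ratio of 1. Rps21, at a CPM ratio of 1.02 (0.963 to 1.08), and Rps16, at 1.01 (0.970 to 1.05), had intervals that include 1. By TPM both were lower, Rps21 at 882 TPM in the transfectant and 903 TPM in mock and Rps16 at 689 TPM in the transfectant and 720 TPM in mock. Rps6, the target of S6 kinases, was at 792 TPM in the transfectant and 813 TPM in mock, a CPM ratio of 0.976 (0.948 to 1.01), and 0.872 (0.853 to 0.892) with pseudogenes. The signs of 11 of the 77 genes, Rpl37a, Rpl24, Rpl35a, Rps4x, Rps21, Rps16 and Rps6 among them, changed under at least 1 other scaling, centring or count definition.

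The paralogs Rps27 and Rps27l differed in direction. Rps27, also called metallopanstimulin-1, was at 1221 TPM in the transfectant and 2091 TPM in mock, 1.66-fold lower in CPM (1.58 to 1.74). Rps27l, its close paralog and a known p53-inducible gene, was at 1240 TPM in the transfectant and 962 TPM in mock, a CPM ratio of 1.33 (1.27 to 1.39). Within the pair Rps27l took 66.4% of the counts in the transfectant (65.4 to 67.4, exact binomial) and 47.3% in mock (46.1 to 48.5), a comparison that needs no scaling between libraries. By TPM the share was 50.4% in the transfectant and 31.5% in mock. Rps27rt, a retrocopy of Rps27, went with Rps27. It had 1022 counts in the transfectant and 1780 in mock, a ratio of 0.436 (0.403 to 0.471), and its share of Rps27 plus Rps27rt was 25.8% in the transfectant (24.4 to 27.2) and 32.5% in mock (31.2 to 33.7).

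The other paralogs differed less in share or were hardly counted. Rpl22l1, which can take the place of Rpl22, had 452 counts in the transfectant and 672 in mock, and its share of the pair was 12.1% in the transfectant (11.1 to 13.2) and 14.3% in mock (13.3 to 15.3). Rpl7l1 held 26.0% of counts in its pair with Rpl7 in the transfectant (25.4 to 26.7) and 19.96% in mock (19.4 to 20.5). Rpl36al, an autosomal copy of the X-linked Rpl36a, held 80.7% in the transfectant (79.6 to 81.8) and 81.0% in mock (79.9 to 82.0), a difference smaller than the counting intervals. The 3 genes under the floor were all paralogs of narrow tissue use. Rpl3l, the striated muscle form of Rpl3, had 4 counts in the transfectant and 0 in mock. Rpl39l, known from the testis, had 1 count in the transfectant and 0 in mock, and Rpl10l, also a testis form, had 0 in both. A count of 0 allows up to 0.123 CPM in the transfectant and 0.163 CPM in mock, at 3 counts.

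**Figure D4:**
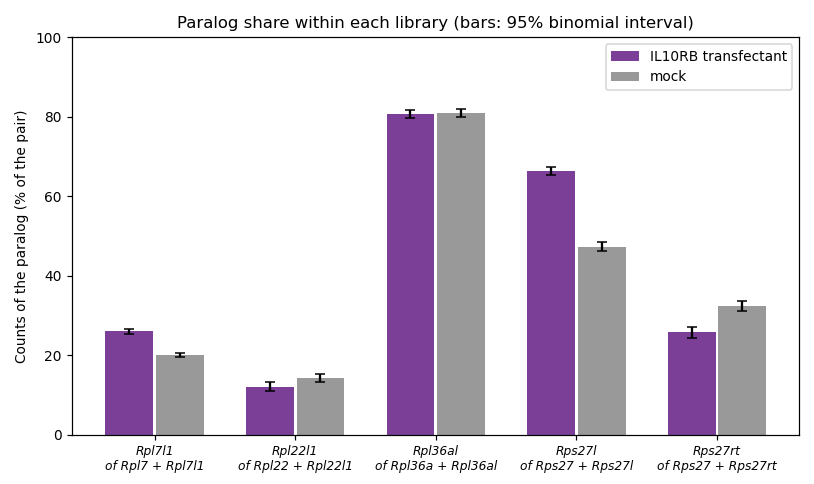
Share of the paralog in the counts of each pair, as percent, in the IL10RB transfectant (purple, left bar of each pair) and mock (grey, right bar) libraries, with exact 95% binomial intervals. Rps27l stands at 66.4% in the transfectant and 47.3% in mock, Rps27rt at 25.8% in the transfectant and 32.5% in mock, and Rpl36al at nearly the same height in both.

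Ribosomal proteins and paralogs whose names fall outside the rule were lower too, 8 of 8 past the floor with a ratio below 1. Over all genes past the floor this share was 46.9%. Fau is shown for its product and was chosen after its values were seen. Fau, which encodes the 40S protein eS30 fused to a ubiquitin-like protein, had a ratio of 0.832 (0.7998 to 0.865). Rps3a1 was at 565 TPM in the transfectant and 1027 TPM in mock, a ratio of 0.541 (0.526 to 0.556). Rack1, the scaffold on the 40S head, was at 676 TPM in the transfectant and 1180 TPM in mock, a ratio of 0.604 (0.590 to 0.619).

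By chromosome, the genes past the floor lay on 19 chromosomes, and on all 19 their median log2 fold was below that of the other protein coding genes past the floor. Chromosome 16 was the only one with a positive median for ribosomal proteins, 0.12 over Rpl35a and Rpl24, where the 363 other coding genes had 0.56. On chromosome 3, with Rps27 and Rpl34, the median was -0.95 against -0.31 for 531 other genes. On chromosome 7, which holds 14 of the genes, it was -0.50 against 0.16. On the X chromosome it was -0.37 over Rpl10, Rpl36a, Rpl39 and Rps4x, against 0.33. Medians of other genes also differed between chromosomes, and the part of this in the values of single ribosomal protein genes was not tested.

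Neighbouring parts of the protein synthesis machinery gave different values, to be read beside the 11.9% of all genes past the floor called lower and the 19.7% called higher. Of 33 genes for ribosome assembly and RNA polymerase I, 26 passed 2-fold in the lower and 0 in the higher direction (24 and 0 with total count scaling). Their median log2 fold was -1.31, below that of the ribosomal proteins themselves. Polr1b, the second largest subunit of RNA polymerase I, had a ratio of 0.224 (0.195 to 0.258), Gnl3, nucleostemin, 0.240 (0.227 to 0.253) and Heatr1 0.246 (0.218 to 0.277). Other TOP mRNAs had a median of -0.40, close to that of the ribosomal proteins, and 3 of 22 were at least 2-fold lower. Those 3 were Eif3a, a scaffold of the initiation factor eIF3, with 0.266 (0.258 to 0.275), the import receptor Ipo7 and the nucleolar protein Npm1, with 0.374 (0.366 to 0.383). The log2 folds of the 22 ran from -1.91 to 0.71. For 18 of them the counting interval lay below a ratio of 1 and for 4 above it. The 78 mitochondrial ribosomal protein genes counted 7 lower and 5 higher at 2-fold (8 and 1 with upper quartile scaling). Their median of 0.11 was -0.01 with that scaling. The lists were not tested against each other.

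**Figure D5:**
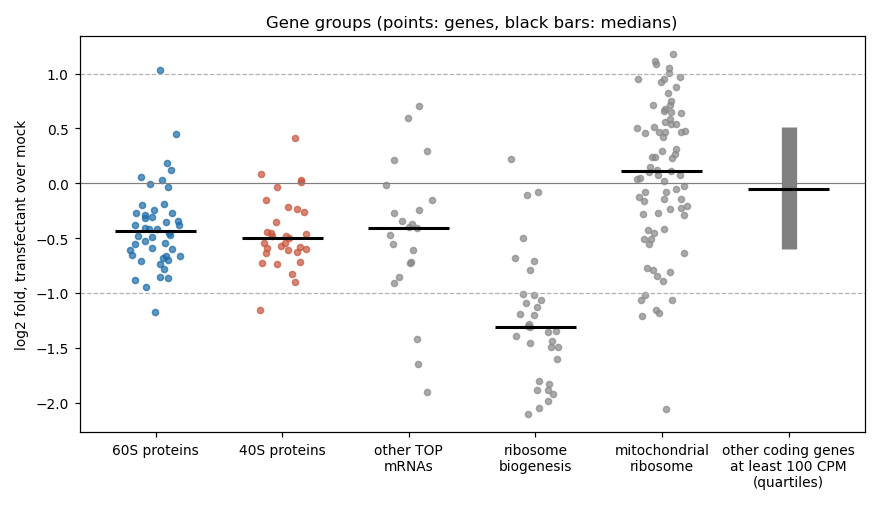
Log2 fold, IL10RB transfectant over mock, of single genes (points) in the 60S and 40S ribosomal proteins, other TOP mRNAs, ribosome biogenesis and mitochondrial ribosomal protein lists, with black bars at the medians. The grey bar spans the quartiles of the 2307 other abundant coding genes, and dashed lines mark 2-fold. The medians are -0.44, -0.50, -0.40, -1.31 and 0.11 for the lists and -0.05 for the other coding genes.

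Of 5 dedicated chaperones of single ribosomal proteins, 2 were at least 2-fold lower, beside 11.9% of all genes past the floor. These were Heatr3, which serves Rpl5, with a ratio of 0.490 (0.462 to 0.519), and Bccip, which serves Rpl23, with 0.493 (0.465 to 0.523). Neither passed 2-fold with total count scaling. Aamp, whose yeast counterpart serves the protein of Rpl10, was higher, with a ratio of 1.69 (1.63 to 1.75). Of 9 genes of mTORC1 and TOP control, 2 passed 2-fold in the higher and 1 in the lower direction (1 and 1 with upper quartile scaling), shares close to the 19.7% and 11.9% over all genes past the floor. Eif4ebp1, the translation repressor that mTOR inactivates, had a ratio of 0.303 (0.292 to 0.313), its relative Eif4ebp2 2.07 (1.90 to 2.27) and the S6 kinase gene Rps6kb2 2.30 (1.99 to 2.66). Of 5 transcription factors known at ribosomal protein promoters all had ratios below 1, beside 46.9% of all genes past the floor. Only 1 of the 5, Myc, was at least 2-fold lower, with a ratio of 0.183 (0.176 to 0.191).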

How the data were processed

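Per the labels' protocols, library preparation used SMART-Seq v4 Ultra Low Input reagents. DRAGEN is named in the submitters' processing notes, without version or role. Build, annotation and strand setting: no source used here gives them. The deposited table holds estimated counts, not normalised, and TPM scaled by the authors for gene length and depth, per the file headers. Counts were rounded and scaled by TMM factors from edgeR 4.0.16 in R 4.3.3. DESeq2 1.42.0 gave alternative size factors, and neither tool was used for a test. Log2 folds used a pseudocount of 0.5 CPM, which understates differences of low genes. Genes needed 50 counts in a library, and a call needed a fold of 2. Ratios in the text carry no pseudocount. Their intervals are exact conditional ones, and reads amplified without molecular identifiers are not independent molecules. After scaling, 1 count equalled 0.0411 CPM in the transfectant and 0.0542 CPM in mock.

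Pseudogene transcripts of GENCODE M21 were matched to coding transcripts with blastn 2.17.0, and the best match with at least 90% identity over 50% of the pseudogene was kept. Only genes typed or named as pseudogenes were matched, so retrocopies such as Rps27rt were left out. Without strand, reads of 13 genes that overlap another gene past the floor cannot be separated. The members, the gene lists and the rules were chosen with earlier results of these data known. Any member could be named, with full values for the 5 highest and lowest of each subunit, genes past 2-fold, paralogs, the 3 most abundant of each subunit, stalk and 5S genes, and up to 4 genes of largest absolute log2 fold in each other list. Some genes so eligible are summarised only, and some are not reported here by name. The procedure was tested on simulated data with counting error only. That run checked the code and could not show errors from differences between cultures, reads shared with pseudogenes or amplified reads. Python 3.11.15, numpy 2.4.6, pandas 2.3.3, scipy 1.17.1 and matplotlib 3.10.9 were used.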

Additional observations from a re-analysis of the deposited data

How the results depend on the processing

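The median log2 fold of the ribosomal proteins was negative under every alternative tried, from -0.60 to -0.28. It was -0.59 with upper quartile scaling, -0.60 centred by gene length, -0.58 centred by chromosome, and -0.28 over the 1 gene past the floor with whole counts (Rpl39), where the calls were 0 and 0. The 2 alternatives added after seeing the data, pseudogenes matched by sequence and genes with at least 80% of the family's counts, gave -0.54 and -0.56. The other medians moved by less than 0.0549, the margin that the counting interval of the median gene gives in log2. Higher calls were 0 with upper quartile scaling, a pseudocount of 2, either centring, either sum with pseudogenes and the 80% rule, and 7 by the counting interval. Lower calls were 5 (upper quartile), 27 (a fold of 1.5), 64 (counting interval), 8 (length), 4 (chromosome) and 1 (80% rule). With upper quartile scaling 363 of the 2307 other abundant coding genes were lower and 187 higher. Over all genes past the floor the counting interval lay below 1 for 40.4% and above for 45.7%. Shares over all genes at a fold of 1.5, a pseudocount of 2 and either centring were not computed. Those counts thus stand without a background. The summed ratio of 0.691 was 0.687 with DESeq2 size factors, 0.715 with total counts, 0.636 with upper quartile, 0.699 in TPM, 0.828 with whole counts, 0.665 with pseudogenes named after the gene and 0.666 with those matched by sequence. Large minus small was -0.0369 centred by chromosome and -0.0582 under the 80% rule. The share of Rpl7l1, transfectant minus mock, was 6.09 points by counts and 3.93 by TPM. For these changes the cause was not tested. Of 847 values of single genes, 540 stayed within their counting margin and 307 did not. Among the values of the 3 genes past 2-fold 0 changed sign. Over all 77 genes, 11 changed sign in at least 1 setting. No paired analysis was possible because there was 1 library in each group.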
